A study of Mus musculus with 16 samples.

Results

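The genes described here belong to the machinery with which lysosomes and endosomes sense and degrade nucleic acids, with the lysosomal exonuclease *Pld4* at their centre. The 9 members were chosen by name as listed exonuclease, toll-like receptor, transporter and adaptor genes, and the group was selected on the readout that *Pld4* RNA was lower with senexin B in both genotypes. They are 9 of the 50686 gene models counted in each library, and all 9 passed the filter on low counts in each comparison. RNA was sequenced from mouse pro-B cells of C57BL/6N bone marrow that were transformed with a retrovirus carrying BCR-ABL1p185 and grown as 8 separately derived lines. Of these lines, 4 were wild-type (*Cdk8*fl/fl in the methods) and 4 were Cdk8-ko, in which Vav-Cre, active in blood cells, had deleted *Cdk8*. Each line was kept for 48 h either in 0.01% DMSO (control) or in 1 µM senexin B, an inhibitor of the kinases CDK8 and CDK19. This gave 16 libraries in the 4 groups wild-type control, wild-type senexin B, Cdk8-ko control and Cdk8-ko senexin B, with 4 lines in each group. The replicate number names the line within its genotype, and the same number in the other genotype is another line. Library totals on genes ran from 13145876 to 18349425 counts. The genotype and senexin B comparisons use the same DMSO libraries, so their values are not independent of each other.

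In endosomes, toll-like receptors 7 and 9 detect single-stranded RNA and unmethylated CpG DNA. The chaperone UNC93B1 carries them there from the endoplasmic reticulum, and the receptors signal through the adaptor MYD88 to factors such as IRF5. The lysosomal exonucleases PLD3 and PLD4 degrade single-stranded nucleic acids and thereby limit the ligands of these receptors, and the transporters SLC15A3 and SLC15A4 sit in the same membranes. Such sensing is best known from plasmacytoid dendritic cells and B cells.

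*Cdk8* was examined first as a check on the labels. Its level, in counts scaled to a library of 1000000 after TMM normalization (CPM), was 68.6, 61.7, 63.2 and 65.7 in wild-type control lines 1 to 4, and 35.3, 52.0, 47.1 and 42.7 in Cdk8-ko control lines 1 to 4. The control groups did not overlap. With senexin B it was 89.3, 56.2, 56.7 and 55.1 CPM in the wild-type lines and 43.8, 61.6, 42.9 and 41.1 CPM in the Cdk8-ko lines, where Cdk8-ko line 2 lay above 3 of the 4 wild-type lines. The log2 fold change of Cdk8-ko over wild-type in DMSO was -0.55 (SE 0.14, adjusted p = 0.897, edgeR quasi-likelihood test with Benjamini-Hochberg adjustment). Counts are per gene and not per exon, so reads of undeleted exons and incomplete deletion cannot be told apart from these counts. The paper reports, from immunoblots, that CDK8 protein was absent in BCR-ABL1p185 cells of the deleted genotype recovered from mice. The pro-B label was checked against 12 markers, all of which were detected in all 16 libraries. Their summed level lay between 7269 and 11658 CPM, and *Cd93* had the highest mean over the 16 libraries, though not the highest level in each of them.

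Levels were compared between genes in CPM per kilobase of exon, here in wild-type controls (mean ± SD, n = 4 lines). *Unc93b1* was highest at 61.8 ± 7.26, followed by *Irf5* at 22.5 ± 4.89. *Pld3* (13.8 ± 6.38), *Tlr9* (13.4 ± 1.74), *Myd88* (12.6 ± 1.42) and *Pld4* (11.4 ± 3.32) lay within their spread of each other. *Slc15a4* (3.73 ± 0.902), *Slc15a3* (3.64 ± 1.54) and *Tlr7* (2.53 ± 4.03) were lowest and again did not differ beyond their spread.

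Among the receptors, *Tlr7*, which detects single-stranded RNA, differed widely between lines. In wild-type controls its level was 0.0577, 6.29, 34.7 and 0.350 CPM in lines 1 to 4, and in Cdk8-ko controls it was 2.49, 0.125, 0.127 and 2.94 CPM. With senexin B it was 0.0719, 2.94, 21.8 and 0.154 CPM in the wild-type lines and 1.43, 0.0686, 0.303 and 2.51 CPM in the Cdk8-ko lines. Wild-type line 3 was far above the rest in both media, wild-type line 2 followed, and wild-type lines 1 and 4 and Cdk8-ko lines 2 and 3 held 1 to 5 counts per library. The genotype groups overlapped. The log2 fold change of Cdk8-ko over wild-type was -2.87 (SE 1.71) in DMSO, and it was -0.66 without wild-type control replicate 3. The gene lies on the X chromosome from 167304929 to 167330558 (GRCm38).

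*Tlr9*, the receptor for unmethylated CpG DNA, was present in every line. Its level was 43.6, 46.2, 41.4 and 55.2 CPM in wild-type controls and 33.6, 20.4, 28.2 and 21.2 CPM with senexin B. In Cdk8-ko lines it was 45.2, 26.2, 35.5 and 56.3 CPM in DMSO and 33.2, 10.0, 25.5 and 23.2 CPM with senexin B. Each of the 8 lines was lower with senexin B than with DMSO, at 38.2% to 77.0% of its control, and the treatment groups did not overlap in the wild-type lines but did in the Cdk8-ko lines. Between genotypes the *Tlr9* groups overlapped in both media, with log2 fold changes of -0.19 (SE 0.23) in DMSO and -0.17 (SE 0.35) with senexin B.

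*Unc93b1*, which escorts the receptors to endosomes, was at 204, 163, 176 and 158 CPM in wild-type controls and 98.8, 132, 136 and 219 CPM with senexin B. In Cdk8-ko lines it was at 181, 161, 168 and 163 CPM in DMSO and 117, 107, 165 and 170.5 CPM with senexin B. The control libraries lay close together, while senexin B libraries were spread widely, and wild-type line 4 and Cdk8-ko line 4 were higher with senexin B than without it. The groups overlapped in every comparison.

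The transporter *Slc15a3* was at 27.1, 26.5, 9.27 and 17.1 CPM in wild-type controls and 24.7, 9.65, 3.64 and 6.15 CPM with senexin B. In Cdk8-ko lines it was at 20.1, 26.5, 16.2 and 24.2 CPM in DMSO and 12.4, 9.47, 14.4 and 11.3 CPM with senexin B. All 8 lines were lower with senexin B, at 35.7% to 91.4% of control, and the treatment groups overlapped in wild-type but not in Cdk8-ko lines. *Slc15a4*, a histidine and peptide transporter of the same family, was at 27.0, 17.4, 17.3 and 17.6 CPM in wild-type controls and 22.01, 15.8, 20.6 and 21.3 CPM with senexin B. In Cdk8-ko lines it was at 12.96, 35.1, 21.7 and 16.8 CPM in DMSO and 15.1, 48.5, 32.2 and 19.6 CPM with senexin B. All 4 Cdk8-ko lines were higher with senexin B, the wild-type lines went both ways, and the groups overlapped. The exons of *Slc15a3* share 1541 bases with *Tmem132a*, which runs on the opposite strand, and counting took no account of strand. Those of *Slc15a4* share 427 bases with *Gm43474*, also on the opposite strand, which held 0 counts in the 16 libraries.

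*Pld4*, which lies on chromosome 12 from 112760655 to 112768986, is the member whose values chose the group, so its senexin B values are given as a description. Its level was 13.7, 29.5, 22.3 and 24.3 CPM in wild-type control lines 1 to 4 and 1.44, 6.87, 3.53 and 4.30 CPM in the same lines with senexin B. In Cdk8-ko lines it was 54.9, 14.3, 17.4 and 17.9 CPM in DMSO and 13.4, 2.40, 5.27 and 3.90 CPM with senexin B. Every line was lower with senexin B, at 10.5% to 23.3% of its control in wild-type lines and 16.8% to 30.2% in Cdk8-ko lines. The treatment groups did not overlap within either genotype, although the highest senexin B library, Cdk8-ko line 1, came close to the lowest Cdk8-ko control.

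**Figure D1:**
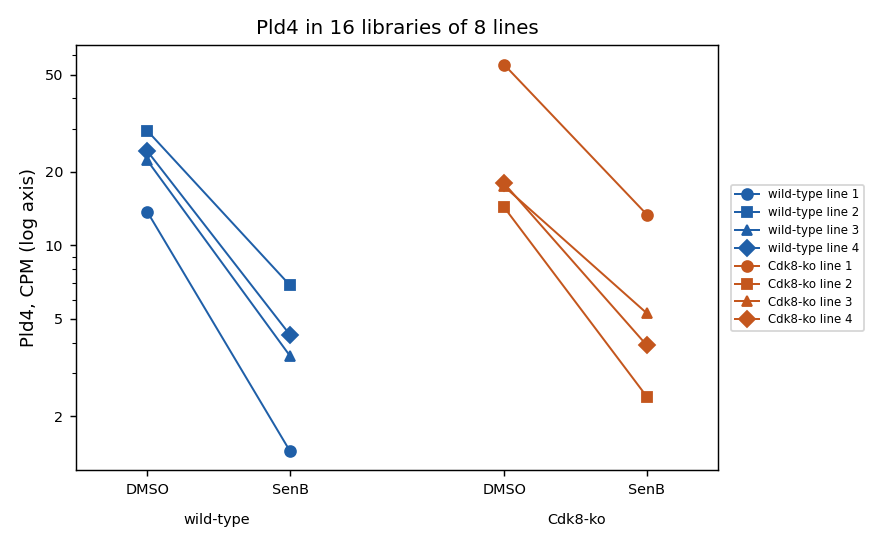
*Pld4* in each of the 16 libraries, in CPM on a log axis, for wild-type (left, blue) and Cdk8-ko lines (right, orange) in DMSO and in senexin B (SenB). Each line joins the 2 libraries of one cell line, and all 8 run downwards.

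By group, *Pld4* stood at 26.2 ± 19.3 CPM (SD, n = 4 lines) in Cdk8-ko controls, 22.5 ± 6.56 CPM in wild-type controls, 6.24 ± 4.90 CPM in Cdk8-ko senexin B and 4.03 ± 2.24 CPM in wild-type senexin B. Neighbours of one treatment in this order did not differ beyond their spread. The mean log2 difference within lines was -2.58 ± 0.44 (SD, n = 4) in wild-type and -2.10 ± 0.34 in Cdk8-ko lines. Between genotypes the log2 fold change of *Pld4* was 0.22 (SE 0.45) in DMSO and 0.63 (SE 0.62) with senexin B, with overlapping groups. This direction rested on Cdk8-ko line 1: without its control library the DMSO value was -0.44, and without its senexin B library the other was -0.05. As RNA was taken from whole cultures, fewer cells with *Pld4* RNA and less of it per cell cannot be told apart.

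*Pld3*, the second lysosomal exonuclease, was at 30.8, 66.3, 40.5 and 23.6 CPM in wild-type controls and 17.8, 39.7, 24.4 and 20.6 CPM with senexin B. In Cdk8-ko lines it was at 52.8, 26.6, 37.5 and 23.5 CPM in DMSO and 46.0, 13.7, 34.8 and 30.2 CPM with senexin B. Of the 8 lines, 7 were lower with senexin B and Cdk8-ko line 4 was higher, and the groups overlapped throughout. The mean log2 difference within lines was -0.42 ± 0.45 (SD, n = 8), against -2.34 ± 0.44 for *Pld4*, whose fall chose the group.

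The adaptor *Myd88* lay between 25.1 and 43.4 CPM over all 16 libraries, and its groups overlapped in every comparison. The transcription factor *Irf5* was at 50.5, 68.5, 59.0 and 83.6 CPM in wild-type controls and 88.8, 61.2, 95.3 and 77.9 CPM in Cdk8-ko controls. With senexin B it was at 38.0, 66.0, 47.1 and 44.5 CPM in wild-type and 89.4, 54.0, 98.0 and 63.9 CPM in Cdk8-ko lines. Cdk8-ko lines 1 and 3 were above all wild-type libraries of their medium, and the groups overlapped. The log2 fold change of *Irf5* with senexin B, Cdk8-ko over wild-type, was 0.64 (SE 0.25, adjusted p = 1, edgeR quasi-likelihood test with Benjamini-Hochberg adjustment). The exons of *Irf5* share 411 bases with *Tnpo3* on the opposite strand, and those of *Myd88* share 290 bases with *Acaa1a*.

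**Figure D2:**
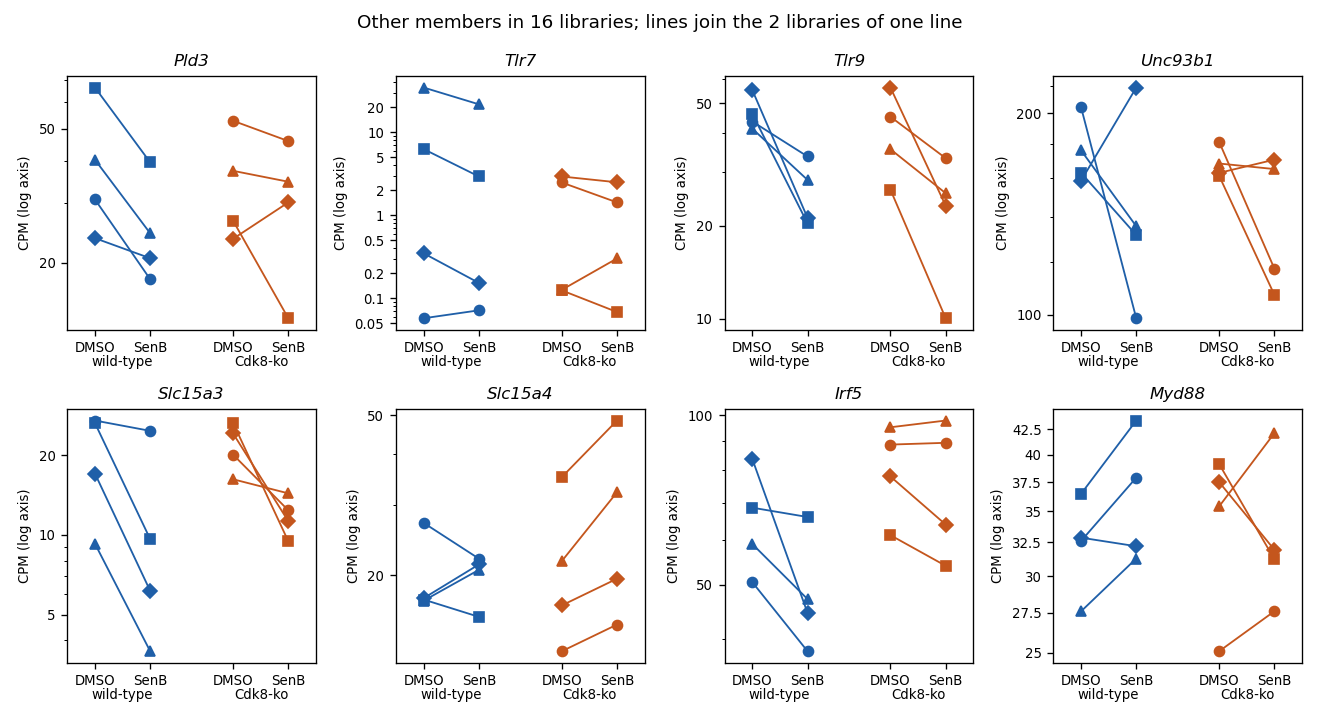
The other 8 members in each library, in CPM on log axes, drawn as for *Pld4*. *Tlr9* and *Slc15a3* run downwards in all 8 lines, and *Tlr7* differs between lines far more than between media.

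The limits for calling a gene were a fold change above 2 together with a p below 0.05 after Benjamini-Hochberg adjustment over all genes tested. Between genotypes in DMSO, edgeR called 0 of the 9 members (0 at an unadjusted p under 0.05, and 0 called by DESeq2), against a background of 0.00759% of 13174 genes. Of all genes in that comparison, 701 had an unadjusted p under 0.05, and DESeq2 called 32. With senexin B edgeR again called 0 of 9 (*Irf5* alone had an unadjusted p under 0.05, and DESeq2 called 0), against a background of 0% of 13010 genes, where 202 had an unadjusted p under 0.05 and DESeq2 called 10. The genotype groups of 0 of 9 members did not overlap, in DMSO against a background of 3.14% and with senexin B against 0.999%. At such shares a count of 0 among 9 members is no result about them.

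The interaction, which asks whether the senexin B difference depends on genotype, was called by edgeR for 0 of 9 members, both without and with the line as a block, against a background of 0% of 14164 genes in each fit. Unadjusted p values under 0.05 were found for 0 members in either fit, and for 67 genes without and 459 with the block. DESeq2 called 0 members and 0 genes in all. For *Pld4* the interaction, given as a description, was 0.41 (SE 0.81) on the log2 scale and 0.47 (SE 0.27) with the block. Without the block it was -0.28 when Cdk8-ko senexin B replicate 1 alone was left out and 1.07 when Cdk8-ko control replicate 1 alone was. With both libraries of a line left out together, the genotype difference of the mean within-line differences was 0.45 without Cdk8-ko line 1, and from 0.28 to 0.64 over all 8 lines left out in turn.

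In the senexin B comparisons, from which the group was chosen, the counts are given without a reading. In wild-type lines edgeR called 0 of 9 members against a background of 0% (2 members at an unadjusted p under 0.05, and 1 called by DESeq2), and with the line as a replicate block it called 1, *Pld4*, against 0.346% of 12989 genes. At an unadjusted p under 0.05 there were 493 genes without the block and 1343 with it, 6 of them members, and DESeq2 called 19 genes. In Cdk8-ko lines it called 0 of 9 against 0% (2 at an unadjusted p under 0.05, 0 called by DESeq2), and with the block 1, *Pld4*, against 0.0527% of 13285 genes. The unadjusted p was under 0.05 for 243 genes without the block and 1368 with it, 4 of them members, and DESeq2 called 0 genes. Over all 8 lines it called 0 of 9 against 0% (3 at an unadjusted p under 0.05, 1 called by DESeq2), and with the block 1, *Pld4*, against 0.946% of 14164 genes. Over the 8 lines 688 genes had an unadjusted p under 0.05 without the block and 2324 with it, 6 of them members, and DESeq2 called 17 genes. In that blocked fit *Tlr9* and *Slc15a3* met the limit on p but not that on the fold change. Within genotypes, blocked fits with a whole line left out called 0 members without wild-type line 2 and without Cdk8-ko line 2 or 4. In these fits on 3 lines the log2 value of *Pld4* lay between -2.76 and -2.41 in wild-type and between -2.23 and -1.98 in Cdk8-ko lines. The treatment groups of *Pld4* and *Tlr9* did not overlap in wild-type lines, 2 of 9 members against 2.16% of genes, and those of *Pld4* and *Slc15a3* did not in Cdk8-ko lines, 2 of 9 against 1.65%. *Pld4*, *Tlr9* and *Slc15a3* were lower in all 8 lines, 3 of 9 members against 2.60% of genes. As the fall of *Pld4* chose the group, its place in each of these counts was set beforehand. The counts that include it therefore cannot be weighed against the shares of all genes.

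**Figure D3:**
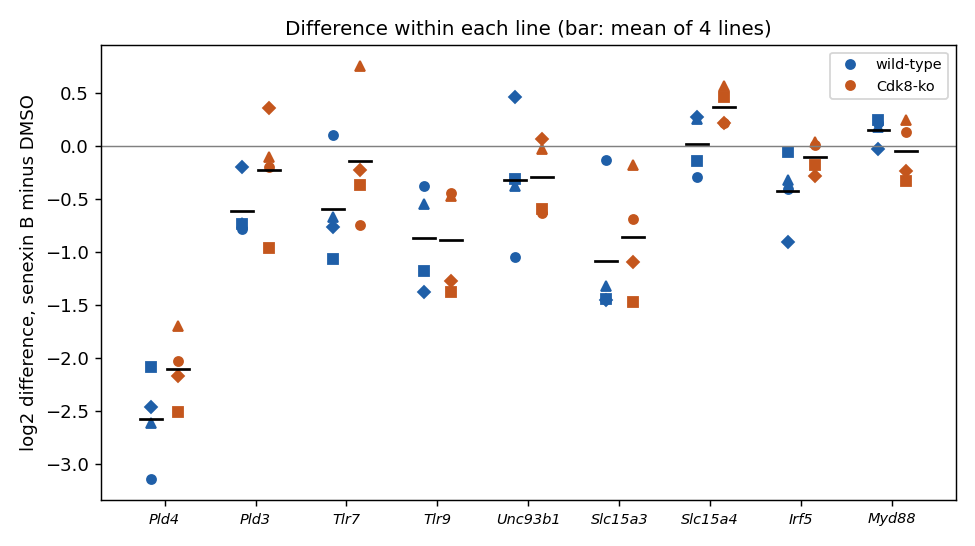
Log2 difference between senexin B and DMSO within each line for the 9 members, with wild-type lines in blue, Cdk8-ko lines in orange and a bar at the mean of 4 lines. *Pld4*, whose fall chose the group, lies between -3.15 and -1.70, below every value of the other members.

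Other genes of the pathway were grouped into 5 lists. Of 22 receptor and trafficking genes, 15 could be tested over all 8 lines, and with the block only *Cd36*, a scavenger receptor, was called lower, at a log2 fold change of -1.70 (SE 0.29) and with a median of -0.02 for the list beside -0.00 for all genes. *Cd36* ranged from 0.0577 to 8.93 CPM in wild-type controls and from 0.216 to 3.58 CPM with senexin B, and from 0.250 to 32.7 and 0.0686 to 3.69 CPM in the Cdk8-ko groups. Of 15 cytosolic and nuclear sensors, all tested, *Zbp1*, a sensor of Z-form nucleic acids, with group means of 11.7 CPM in wild-type controls and 5.14 CPM with senexin B, and 8.25 and 4.27 CPM in the Cdk8-ko groups, was called lower at -1.22 (SE 0.26), with 12 of 15 below 0 and a median of -0.33. Of 20 output genes of endosomal receptor signalling 12 could be tested, and *Ifit3*, an interferon-induced gene at no more than 1.88 CPM in any library, was called lower at -1.83 (SE 0.40), with a list median of -0.37. Within genotypes, where 9 of the 20 could be tested, the list median with the block was -0.31 in wild-type lines (1 of 9 above 0) and 0.00 in Cdk8-ko lines (5 of 9 above 0), and without the block it was -0.38 and 0.14. These 3 calls were made with the block over all 8 lines, a fit that called 0.946% of all 14164 genes tested. Without the block edgeR and DESeq2 called 0 genes of the 5 lists in any comparison. Among these outputs *Ifnb1*, *Ifna4* and *Il12b* held 1 count in 1 library each and 0 in the others.

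No gene was called in the other lists. Of 18 nucleases and clearance genes 13 were tested, with a median of -0.11 over all 8 lines with the block. Highest in mean CPM per kilobase over the 16 libraries were *Rnaseh2c* (23.9) and *Rnaseh2a* (14.3), subunits of ribonuclease H2, whose mean levels in the 4 groups lay between 32.0 and 40.1 CPM and between 42.9 and 53.6 CPM. *Samhd1*, at 14.3 as well, lay above *Rnaseh2a* in both control groups. *Trex1* was listed at 0 in all 16 libraries, but all 1147 bases of its exons are shared with another gene model on the same strand, so this 0 does not show that its RNA was absent. All 28 signalling genes were tested, with a median of -0.06. *Irf4* and *Btk* had the highest means per kilobase over the 16 libraries, and *Irf4*, a transcription factor of B cells, was at 362 ± 60.2 CPM (SD, n = 4) in wild-type controls and 500.5 ± 79.9 CPM with senexin B. In Cdk8-ko lines *Irf4* was at 369 ± 41.7 CPM in DMSO and 516 ± 184 CPM with senexin B. The treatment groups overlapped in both genotypes, and the log2 fold change over all 8 lines was 0.47 (SE 0.16) and 0.43 (SE 0.12) with the block, not called in either fit.

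Markers of other cell types were summed in every library, since *Pld4* is also a gene of plasmacytoid dendritic cells, and the gene named as most abundant in a list is that with the highest mean over the 16 libraries. Of the 10 plasmacytoid markers, *Siglech* held counts in 2 libraries, with at most 2 counts, and *Cd209d* was at 0 in all 16. The list summed to between 161 and 371 CPM, with *Tcf4* the most abundant on average, which B-lineage cells also express. *Cox6a2* of this list ranged from 0.294 to 222 CPM (mean 48.4 over the 16 libraries), and *Bst2* from 5.32 to 34.3 CPM (mean 19.9). In the library with the highest sum, wild-type senexin B line 1, *Tcf4* was at 88.0 CPM. Within this list *Ly6d*, also a marker of early B-lineage cells, was called higher with the block, at a log2 fold change of 2.92 (SE 0.32) over all 8 lines, opposite in direction to *Pld4*, and DESeq2 but not edgeR also called it without the block. Within genotypes, the blocked fit called it in wild-type and not in Cdk8-ko lines. Over all 8 lines with the block, 5 of the plasmacytoid markers were tested. Of these, 3 lay above 0 and 2 below, from -0.88 to 2.92, with a median of 0.53. The macrophage and monocyte list summed to between 5.11 and 120 CPM, with *Mrc1* most abundant. *Ccr2* was called higher only with the block over all 8 lines, at 1.83 (SE 0.35), and neither without the block nor within either genotype. Of the 5 genes of this list tested in that fit, 2 lay above 0 and 3 below, down to -1.54, with a median of -0.32. Conventional dendritic markers summed to at most 6.48 CPM, with *Flt3* most abundant. *Flt3* was called lower only with the block over all 8 lines, at -1.63 (SE 0.37), and neither without the block nor in wild-type lines, and by edgeR it could not be tested in Cdk8-ko lines. It was at 0 in wild-type senexin B line 1, where the list summed to 4.75 CPM. In the blocked fit over all 8 lines 2 genes of this list were tested, and the other lay at 0.02. Mature B and plasma markers summed to between 55.2 and 366 CPM with *Cd22* most abundant. T and NK markers summed to between 18.1 and 196 CPM, led by *Lck*, with *Cd3g* and *Ncr1* at 0. *Klrb1c* of the T and NK list ranged from 0.216 to 81.3 CPM (mean 9.40 over the 16 libraries), while *Cd3d*, *Cd3e*, *Cd4* and *Cd8a* stayed at or below 0.245 CPM. Granulocyte, erythroid and stromal lists, led by *Prtn3*, *Klf1* and *Pdgfrb*, stayed at or below 2.20 CPM in each library. The part of *Ly6d*-, *Ccr2*- or *Flt3*-bearing cells in the *Pld4* values was not tested.

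The genes whose log2 CPM followed *Pld4* most closely over the 16 libraries, among 12557 genes, were *Pde4a* (Pearson r 0.90, Spearman rho 0.87), *Kat2b* (0.89 and 0.85), *Fam222b* (0.88 and 0.80), *BC028528* (0.88 and 0.82) and *Ly96* (0.88 and 0.85). These values are descriptive, and as *Pld4* was higher in each of the 8 control libraries than in any of the 8 senexin B libraries, they carry the treatment difference too. Within the 8 controls r was 0.77 for *Pde4a*, a cyclic AMP phosphodiesterase, 0.92 for *Kat2b*, an acetyltransferase, and 0.59 for *Ly96*, the co-receptor of TLR4. The most opposite were *mt-Tl1* (r -0.88, rho -0.83), *Slco1a5* (-0.86 and -0.84) and *Gm9531* (-0.86 and -0.82). With the mean of each line removed, *Tmem71*, *Pxn*, *Bank1*, *Stx7* and *Ppp2r5b* had the highest r, but with 2 libraries per line that measure holds only the senexin B difference that chose the group. Within the 8 controls, r was -0.16 for *Tmem71*, 0.57 for *Pxn*, 0.57 for *Bank1*, 0.37 for *Stx7* and 0.71 for *Ppp2r5b*. Among the members, r within the 8 controls was 0.64 for *Pld3*, 0.49 for *Irf5*, 0.48 for *Tlr7*, 0.37 for *Tlr9*, -0.05 for *Unc93b1*, -0.17 for *Slc15a3*, -0.68 for *Myd88* and -0.82 for *Slc15a4*. Within the 8 senexin B libraries r was 0.87 for *Pld3*, 0.77 for *Irf5*, 0.36 for *Tlr7* and 0.23 for *Tlr9*. It was 0.25 for *Unc93b1*, -0.17 for *Slc15a3*, -0.17 for *Myd88* and -0.52 for *Slc15a4* there. The values of *Tlr7* rest on few counts in several lines. Its r was 0.28 over the 16 libraries and 0.04 without the 2 libraries in which *Pld4* lay farthest from its median.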

How the data were processed

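Single-end 50 bp reads were trimmed with Trimmomatic, mapped with STAR and counted per gene without regard to strand by the authors (featureCounts 1.5.1, GENCODE annotation of GRCm38), and the deposited values are these raw counts. In 1 of the 16 files the header names another annotation folder, and the gene models are identical. The analysis used edgeR 4.0.16 (R 4.3.3) with TMM, filterByExpr (minimum count 10), robust quasi-likelihood test and Benjamini-Hochberg adjustment over all genes tested. Two-group fits held 8 libraries, and the interaction and pooled fits 16. Levels are CPM, with log2 CPM at a prior count of 2. DESeq2 1.42.0, RLE, other filters and limits, a replicate block and leaving out libraries were alternatives. The numbers pair the treatments, as both libraries of a number come from one line: deviations from group means correlated at 0.63 to 0.82 in wild-type and 0.81 to 0.89 in Cdk8-ko lines over 12558 genes. No pair of the 120 was a copy (chi-square per gene of at least 22.6). Members and lists were chosen with earlier results of these data known. Named genes are the members, *Cdk8*, and the genes most like or most opposite to *Pld4*. Of each pathway list, genes called in any comparison are named, or else its 2 most abundant per kilobase by the mean over 16 libraries. Of each marker list, called genes and the most abundant gene are named. Named outside these rules are *Samhd1*, *Cox6a2*, *Bst2*, *Klrb1c*, genes sharing exon bases with members, and some genes with few or no counts.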

Additional observations from a re-analysis of the deposited data

Results flagged for a closer look

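Of 36 sets of 4 libraries (9 members in 4 groups), 3 held a library far from the other 3 by Dixon's criterion. With independent values from a normal distribution, chance meets it in about 1 of 20 sets. It was applied here to CPM without a log, and the 36 sets share lines, so that rate may not hold for them. *Pld4* was at 54.9 CPM in Cdk8-ko control line 1 against 14.3 to 17.9 CPM in the other lines of that group. *Tlr7* was at 21.8 CPM in wild-type senexin B line 3 against 0.0719 to 2.94 CPM in the others. *Slc15a4* was at 27.0 CPM in wild-type control line 1 against 17.3 to 17.6 CPM in the others. The causes were not tested.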

How the results depend on the processing

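The counts of members called stayed at 0 for the genotype and interaction comparisons under all alternatives run. For senexin B they moved from 0 as follows, and the cause was not tested. In wild-type lines the count was 1 with the replicate block, 1 with DESeq2 and 2 with DESeq2 and the block. In Cdk8-ko lines it was 1 with the block and 1 with DESeq2 and the block. Over all 8 lines it was 1 with the block, 1 with DESeq2 and 1 with both, and between 0 and 1 when each library was left out, with 1 without Cdk8-ko senexin B replicate 1. With the block and a whole line left out, an alternative chosen after seeing the data, the count in wild-type lines was 3 without line 1, 1 without line 3 or 4 and 0 without line 2. In Cdk8-ko lines it was 1 without line 1 or 3 and 0 without line 2 or 4. In these fits on 3 lines the log2 value of *Pld4* lay between -2.76 (without line 2) and -2.41 in wild-type and between -2.23 and -1.98 (without line 2) in Cdk8-ko lines, and *Tlr7* passed the filter in 2 of 4 fits for each genotype. Over all 8 lines it was 2 without wild-type line 1, Cdk8-ko line 1 or Cdk8-ko line 3, and 1 without any other line. For genotype the replicate number joins unrelated lines, whose deviations correlated at 0.01 on average in DMSO and 0.11 with senexin B, and the block gave 0 genes called in both media.

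Several differences that were not called changed sign, and the causes were not tested. For *Pld4* between genotypes in DMSO the log2 value was -0.00813 with the replicate block and -0.0229 with DESeq2 and the block. The interaction of *Tlr9* was -0.0176 with the block and -0.00788 with DESeq2 and the block, that of *Slc15a3* 0.22 and 0.24, and that of *Unc93b1* 0.0229 and 0.0343, besides 0.00807 with DESeq2, 0.00620 with RLE and 0.0118 without a filter. When each library was left out in turn, genotype values in DMSO ranged from -0.44 to 0.42 for *Pld4*, -0.46 to 0.14 for *Pld3*, -0.11 to 0.0237 for *Unc93b1*, -0.12 to 0.31 for *Slc15a3* and -0.22 to 0.32 for *Slc15a4*. With senexin B they ranged from -0.0509 to 1.02 for *Pld4*, -0.39 to 0.0834 for *Tlr9*, -0.21 to 0.20 for *Unc93b1* and -0.18 to 0.88 for *Slc15a3*, and from -3.34 (without Cdk8-ko senexin B replicate 4) to 0.0472 (without wild-type senexin B replicate 3) for *Tlr7*. Interactions ranged from -0.28 (without Cdk8-ko senexin B replicate 1) to 1.07 (without Cdk8-ko control replicate 1) for *Pld4*, -0.21 to 0.27 for *Tlr9*, -0.15 to 0.26 for *Unc93b1* and -0.31 to 0.75 for *Slc15a3*, and from -1.88 (without wild-type control replicate 3) to 2.90 (without wild-type senexin B replicate 3) for *Tlr7*. Values for senexin B ranged in wild-type lines from -3.30 to 1.51 for *Tlr7* and -0.04 to 0.20 for *Slc15a4*, in Cdk8-ko lines from -1.20 to 0.23 for *Tlr7*, -0.43 to 0.09 for *Pld3*, -0.22 to 0.05 for *Irf5* and -0.18 to 0.03 for *Myd88*, and over all 8 lines from -1.68 to 0.48 for *Tlr7*. Group levels of the 9 members moved by less than 1 SD with RLE or plain totals. *Tlr7* held 5 counts or fewer in 8 libraries, and depth limits its values there.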
